A study of Mus musculus with 2 samples.

Results

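The 42 genes described here are type I interferon-stimulated genes, chosen by name as a list, and all 42 were found among the 31053 genes of both count tables. The list was chosen with earlier results of these data known, so its counts beside those of all genes are description only. They were followed in 2 droplet scRNA-seq libraries of tumor-infiltrating immune cells (TIIs), 1 from mice given PBS (control) and 1 from mice given creatine. The tumors were B16-OVA, a mouse melanoma line that carries the model antigen ovalbumin, grown under the skin of wild-type C57BL/6J male mice 8 to 12 weeks old. Creatine was given by intraperitoneal injection at 10.5 mg per day, and 4 tumors of each group were combined at day 14 by the labels, although the study's text elsewhere gives an earlier day and another number of mice. The treatment entry of the control library also describes the creatine injection, and the library was taken as control from its title and its PBS label. Live CD45.2+ cells were sorted, so tumor and stromal cells were largely removed, and 10000 cells of each group were loaded. There was 1 library per group, so no difference between the libraries could be set against a spread between replicates. All intervals below cover counting error only, and a library difference and a treatment difference cannot be told apart.

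Type I interferons (the IFN-α family and IFN-β) bind a receptor made of Ifnar1 and Ifnar2, whose kinases Jak1 and Tyk2 phosphorylate STAT proteins. Stat2 and Irf9 are parts of ISGF3, a complex that binds the interferon-stimulated response element (ISRE) in the promoters of its target genes. The targets hold back viruses, sense nucleic acids and feed back on the pathway, and in tumors the pathway is known for its part in antigen presentation by dendritic cells. Many of the same genes also respond to IFN-γ, which induces the transcription factor Irf1.

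Cells were assigned to types by counts of marker genes, none of which was a member of the list. Of 7649 and 6503 barcodes, 7241 control and 6229 creatine cells had at most 25% mitochondrial UMIs (unique molecular identifiers, each a counted transcript molecule), with 79319769 and 72091124 UMIs in all. The libraries shared 30 barcodes. The gates left 2315 control cells (32.0%) and 1718 creatine cells (27.6%) unassigned. Each of 8 cell types had at least 50 cells in both libraries. These were CD8 T cells (2489 control and 2032 creatine cells), conventional CD4 T cells (176 and 209), Tregs (321 and 198), γδ T cells (56 and 116), NK cells (617 and 1028), C1q-high macrophages (795 and 302), classical monocytes (132 and 166) and nonclassical monocytes (89 and 277). All gate markers of these 8 types, and at least 3 of 4 markers kept outside each gate, lay above the median of the other gates in both libraries. Type 1 cDCs (cDC1s, 64 and 47 cells) and type 2 cDCs (cDC2s, 40 and 41 cells) fell under 50 cells in at least 1 library, and their values are given as such. The median cell held more UMIs in the creatine library in all 8 types, most of all in macrophages (15941 and 24259), so levels are given as CPM, a count divided by all UMIs of the cell type and library and scaled to a common total.

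Interferon-stimulated genes were higher in the creatine library in each of the 8 cell types by the median of the members, and most of all in nonclassical monocytes. A member was counted in a cell type where it had at least 100 UMIs over both libraries, and called where its CPM differed by at least 1.5-fold. The median log2 ratio of creatine to control was 0.53 over 38 counted members in CD8 T cells, 0.45 over 25 in conventional CD4 T cells, 0.70 over 26 in Tregs and 0.72 over 9 in γδ T cells. It was 0.28 over 31 members in NK cells, 0.42 over 42 in macrophages, 0.21 over 39 in classical monocytes and 1.08 over 36 in nonclassical monocytes. Over all genes counted in the same way, the median lay between −0.01 and 0.11 in these types. The map of log2 ratios by member and cell type shows the spread of the members around these medians.

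**Figure D1:**
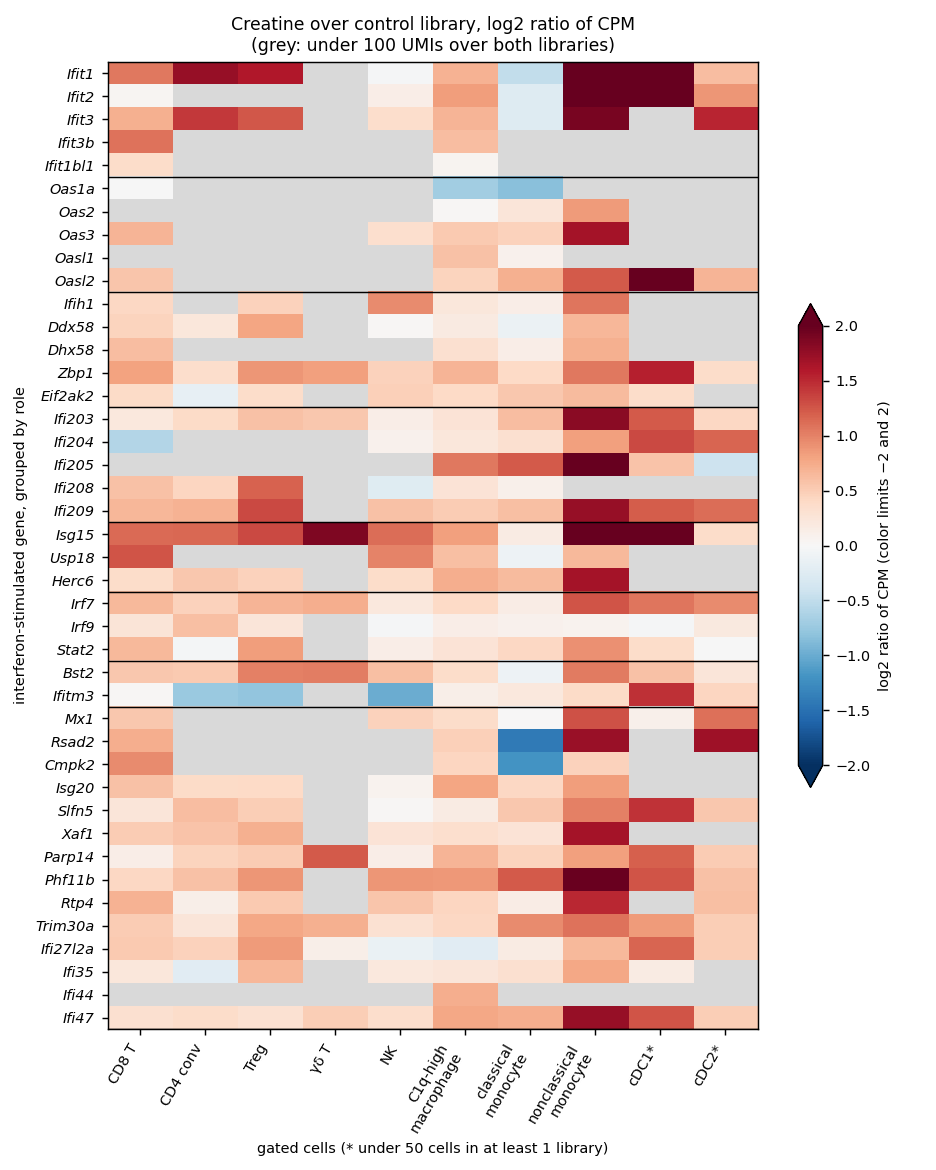
Log2 ratio of CPM, creatine over control library, for each of the 42 members (vertical axis, grouped by role, lines between roles) in 10 gated cell types (horizontal axis). Red is higher and blue lower in the creatine library, grey marks members under 100 UMIs. The column of nonclassical monocytes is red throughout, and the strongest blue cells are Rsad2 (−1.41) and Cmpk2 (−1.20) in classical monocytes.

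By the call of 1.5-fold, 14 of 38 members were higher and 0 lower in CD8 T cells, where 2.93% of all counted genes were higher and 3.25% lower. In conventional CD4 T cells 7 of 25 were higher (background 4.44%) and 1 was lower (2.81%), and in Tregs 15 of 26 were higher (4.95%) and 1 lower (3.2%). In γδ T cells, where few genes could be counted, 6 of 9 members were higher against 12.4% of all genes, and 0 lower against 2.12%. γδ T cells held 305198 control and 651348 creatine UMIs, and the 42 members had 704 and 2393 of them. A member could thus be counted there mainly through the creatine library, although the same minimum held for all genes. In NK cells 6 of 31 were higher (2.42%) and 1 lower (2.06%). Macrophages had 15 of 42 members higher (2.21%) and 1 lower (2.95%). Classical monocytes had 8 of 39 higher against 9.34% of all genes, and 3 lower against 5.31%. With every positive gate threshold doubled, 71 control and 85 creatine cells remained, and 17 of 34 members were higher and 0 lower. The median of the members was then 0.58, beside 0.05 over all genes. The share of all genes past the fold is not given for the doubled thresholds. In nonclassical monocytes 33 of 36 counted members were higher, against 8.39% of all genes, and 0 were lower, against 4.3%. This type held 537694 control and 2419520 creatine UMIs, so a member could be counted there mainly through the creatine library. Without Ifitm3 and Ifi27l2a the other 40 members had 1289 control and 13554 creatine UMIs in all. Members low in the creatine library were thus less likely to be counted, although the same minimum held for all genes. Nonclassical monocytes made up 1.23% of control and 4.45% of creatine cells. Of their gate markers, Ace was at 748 and 497 CPM, Adgre4 at 418 and 327, Treml4 at 331 and 284 and Csf1r at 787 and 803. Outside the gate, Spn was at 537 and 312 CPM, Eno3 at 177 and 153, Gngt2 at 1207 and 1098 and Cx3cr1 at 528 and 618. The part of these differences in the member ratios was not tested.

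Over all cells that passed the filter, 7 of 42 members were at least 1.5-fold higher (4.19% of all genes) and 1, Oas1a, was lower (4.91%), and 39 were higher by any amount (52.7%). With any difference counted, 36 of 38 members were higher in CD8 T cells (59.7% of all genes), 40 of 42 in macrophages (47.5%), 36 of 36 in nonclassical monocytes (51.5%) and 30 of 39 in classical monocytes (57.5%). The same held for 21 of 25 members in conventional CD4 T cells (54%), 25 of 26 in Tregs (57.2%), 9 of 9 in γδ T cells (62.7%) and 26 of 31 in NK cells (56.5%). Over all 246 pairs of a member and 1 of the 8 cell types, 104 were at least 1.5-fold higher (4.37% of all such pairs of a counted gene) and 7 at least 1.5-fold lower (3.21%) in the creatine library. The 7 lower pairs belonged to 4 members, Oas1a, Ifitm3, Rsad2 and Cmpk2. Of the 9 members counted in all 8 cell types, 7 were higher in every one (8.95% of all genes so counted), namely Zbp1, Ifi203, Isg15, Irf7, Parp14, Trim30a and Ifi47. Of the rest, Bst2 and Ifi27l2a were higher in 7 and 6 types. To be counted in all 8 types a member had to reach the minimum in γδ T cells too, where most UMIs came from the creatine library.

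The promoters of many members carried the core of the ISRE. RefSeq promoter windows (GRCm38, 250 bases before to 50 bases after the annotated start) were found for 33 of the 42 members and searched on both strands, with overlapping matches allowed, for the core GAAA, any 2 bases, GAAA, which on the other strand reads TTTC, any 2 bases, TTTC. At least 1 match was present for 20 of the 33 members (60.6%), against 1079 of 27025 genes in the table (3.99%). The median over cell types of a member's log2 ratio had a median of 0.51 over the 20 members with a match and 0.45 over the 13 without one. The 6 windows below run from 200 to 21 bases before the start site, 5′ to 3′ on the strand of the gene, with matches in capitals. Isg15, Ifit1 and Ifit3 are shown because they had among the largest ratios in conventional CD4 T cells, and Ifit3b as the near copy of Ifit3. The neighbors Rsad2 and Cmpk2 are shown because they went the other way in 1 cell type.
Isg15 promoter, chr4:156200839-156201018, minus strand: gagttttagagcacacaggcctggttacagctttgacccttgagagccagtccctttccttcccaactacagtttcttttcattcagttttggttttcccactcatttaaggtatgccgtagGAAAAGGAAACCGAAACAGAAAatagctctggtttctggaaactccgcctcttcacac
Ifit1 promoter, chr19:34640689-34640868, plus strand: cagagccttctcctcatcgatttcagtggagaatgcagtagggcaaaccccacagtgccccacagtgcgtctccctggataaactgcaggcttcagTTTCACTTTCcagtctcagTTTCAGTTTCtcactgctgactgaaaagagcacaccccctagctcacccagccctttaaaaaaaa
Ifit3 promoter, chr19:34583329-34583508, plus strand: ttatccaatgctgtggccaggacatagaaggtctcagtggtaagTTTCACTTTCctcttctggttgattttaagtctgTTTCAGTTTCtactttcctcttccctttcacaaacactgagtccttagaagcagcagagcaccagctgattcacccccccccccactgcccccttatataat
Ifit3b promoter, chr19:34607757-34607936, plus strand: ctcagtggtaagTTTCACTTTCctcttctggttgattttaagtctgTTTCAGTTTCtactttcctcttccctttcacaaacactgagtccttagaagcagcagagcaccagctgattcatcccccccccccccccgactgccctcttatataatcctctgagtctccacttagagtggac
Rsad2 promoter, chr12:26456473-26456652, minus strand: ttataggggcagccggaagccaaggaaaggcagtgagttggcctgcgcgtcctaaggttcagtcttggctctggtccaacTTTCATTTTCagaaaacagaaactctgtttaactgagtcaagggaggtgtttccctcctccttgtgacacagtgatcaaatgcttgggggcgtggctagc
Cmpk2 promoter, chr12:26469015-26469194, plus strand: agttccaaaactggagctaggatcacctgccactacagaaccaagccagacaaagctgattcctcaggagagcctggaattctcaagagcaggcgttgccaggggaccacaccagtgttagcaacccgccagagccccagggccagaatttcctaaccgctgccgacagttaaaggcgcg

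In the Isg15 window 3 overlapping matches form 1 block on the strand of the gene, beginning 78 bases before the start. Ifit1, Ifit3 and Ifit3b each hold 2 matches on the opposite strand, and the windows of Ifit3 and Ifit3b share an identical run of 119 bases. Ifit2, whose windows are not shown, had no match, and its median log2 ratio over cell types was 0.14. Rsad2 has 1 match on the opposite strand, 120 bases before the start, and Cmpk2 has none in its 300 bases. A match is a run of letters and not a measured binding site.

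The IFIT proteins, which bind foreign RNA and block its translation, were among the members with the largest ratios in conventional CD4 T cells, Tregs and nonclassical monocytes. Their genes lie together on chromosome 19. Ifit1 (chr19:34640871-34650009) had a level of 15.1 CPM in the control and 31.5 CPM in the creatine library in CD8 T cells, a log2 ratio of 1.06 (95% interval 0.90 to 1.22). In conventional CD4 T cells it went from 43.6 to 146 CPM (1.74, 1.23 to 2.28), and in Tregs from 37.4 to 113 CPM (1.60, 1.24 to 1.95), while NK cells had 20.2 and 19.9 CPM (−0.03, −0.48 to 0.44). Ifit1 was thus higher in these 3 T cell types, and in NK cells its difference was within the counting error.

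Among myeloid cells Ifit1 was counted at 85.8 and 139 CPM in macrophages, a log2 ratio of 0.69 (0.57 to 0.81). Classical monocytes held the most in the control library, 158 CPM, and less in the creatine library, 112 CPM (−0.49, −0.79 to −0.20), a difference that was −0.01 with gates set on thinned cells. In nonclassical monocytes only 3 control UMIs were counted, 5.58 CPM, against 121 UMIs or 50.01 CPM in the creatine library (3.16, 1.58 to 5.46). In cDC1s, under 50 cells in the creatine library, Ifit1 was at 5.93 and 194 CPM.

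As first gated, Ifit3 followed Ifit1 in direction in each cell type where both were counted except NK cells. In classical monocytes the Ifit3 ratio was −0.26, but it was 1.14 with gate thresholds doubled. Its level was 17.2 and 28.1 CPM in CD8 T cells (0.70, 0.55 to 0.86), 47.1 and 126 CPM in conventional CD4 T cells (1.42, 0.92 to 1.95) and 18.7 and 44.0 CPM in Tregs (1.24, 0.70 to 1.78). It was 82.6 and 132 CPM in macrophages (0.68, 0.56 to 0.80) and 26.0 and 97.1 CPM in nonclassical monocytes (1.90, 1.12 to 2.79). Ifit3b, the near copy of Ifit3, had 1.08 (0.73 to 1.44) in CD8 T cells and 0.61 (0.28 to 0.94) in macrophages, and Ifit1bl1, a further gene of the family, had 0.37 (0.22 to 0.53) and 0.06 (−0.46 to 0.57) there. Ifit2 gave a smaller ratio in CD8 T cells, at 16.03 and 16.5 CPM (0.04, −0.13 to 0.22), and a ratio like theirs in macrophages, at 117 and 208 CPM (0.83, 0.73 to 0.93).

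The ISG15 system attaches a ubiquitin-like protein to others. Isg15 encodes that protein, Herc6 the ligase that attaches it in mice, and Usp18 the protease that removes it and also restrains signaling from Ifnar2. Isg15 (chr4:156199424-156200818) was higher in the creatine library in each of the 8 types. In CD8 T cells it was at 25.7 and 56.5 CPM (1.14, 1.02 to 1.26), in conventional CD4 T cells at 101 and 225 CPM (1.15, 0.80 to 1.51), and in Tregs at 93.2 and 234 CPM (1.33, 1.10 to 1.56). γδ T cells had 42.6 and 155 CPM (1.86, 1.03 to 2.82), from only 13 control UMIs, and NK cells had 28.5 and 62.0 CPM (1.12, 0.78 to 1.48). All 5 lymphoid types thus gave ratios above 1 on the log2 scale, with intervals that overlapped one another, although with gate thresholds doubled the ratio in conventional CD4 T cells fell to 0.08.

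In myeloid cells the Isg15 ratios spread more widely. Macrophages had 278 and 491 CPM (0.82, 0.76 to 0.88) and nonclassical monocytes 53.9 and 281 CPM (2.38, 1.85 to 2.97). Classical monocytes had the highest control level of the 8 types, 581 CPM, and the smallest ratio, with 649 CPM in the creatine library (0.16, 0.02 to 0.30). The intervals of these 3 ratios did not overlap, but the classical monocyte ratio was 0.75 with gate thresholds doubled and 0.44 with gates set on cells thinned to 5000 UMIs. Usp18 was at 4.34 and 10.4 CPM in CD8 T cells (1.26, 0.98 to 1.56), its largest ratio, and at 78.1 and 73.1 CPM in classical monocytes (−0.10, −0.49 to 0.30). Herc6 was higher in all 7 types where it was counted, from 0.37 in CD8 T and NK cells to 1.67 (0.70 to 2.83) in nonclassical monocytes.

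**Figure D2:**
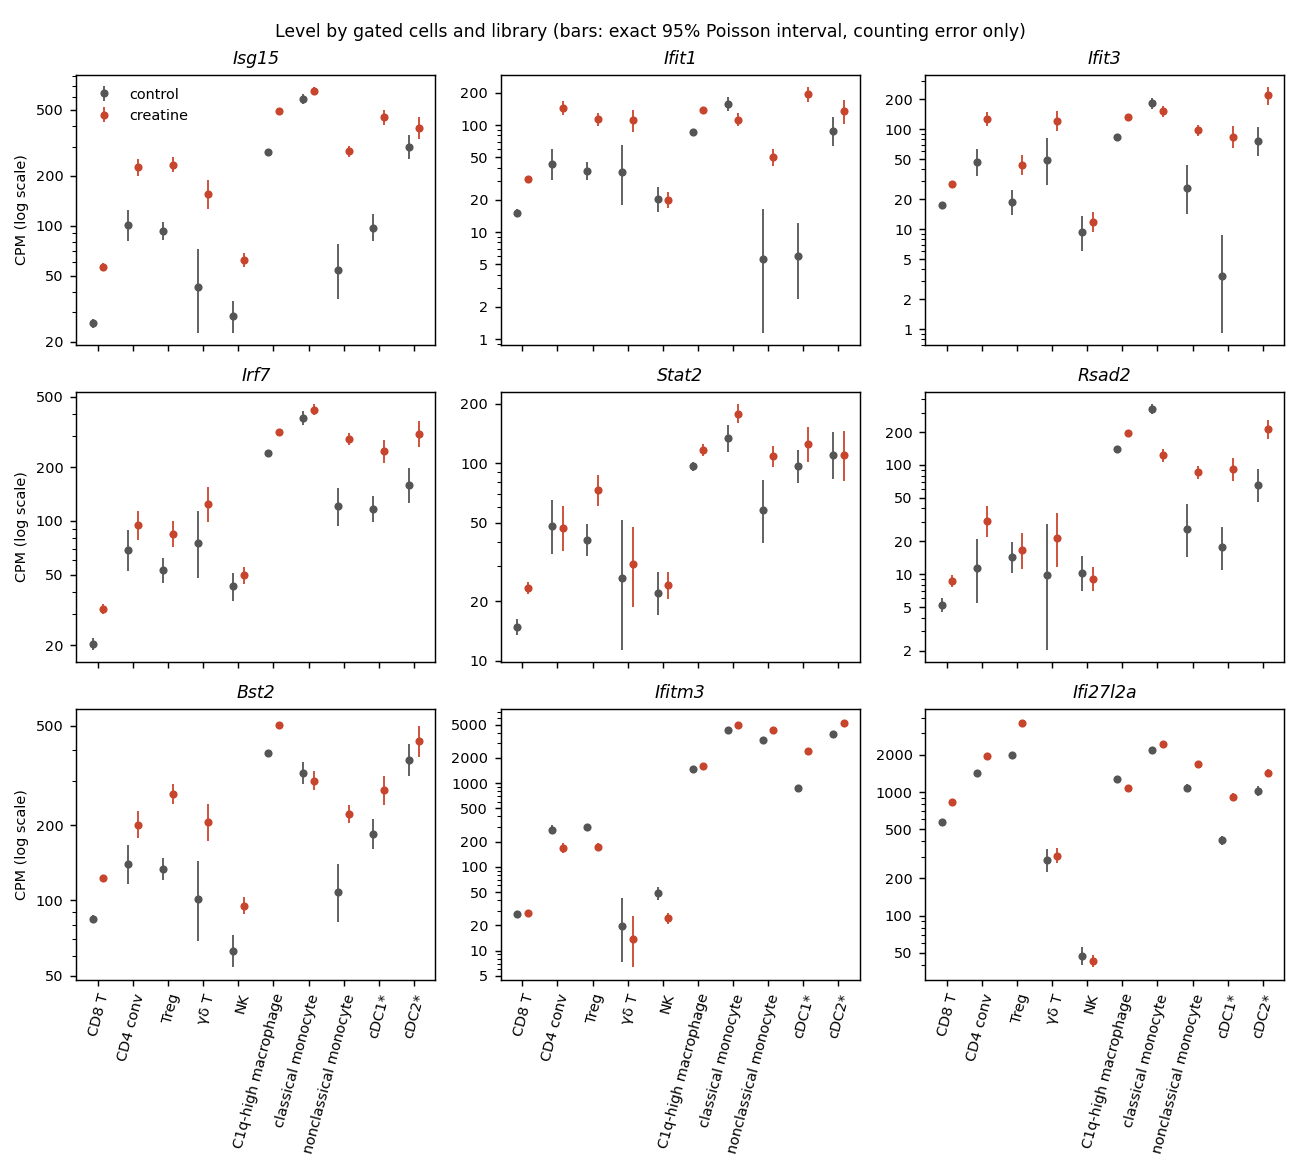
Level in CPM (vertical axes, log scale) of 9 members in 10 gated cell types (horizontal axes) in the control (grey) and creatine (red) libraries, with bars for the exact 95% Poisson interval of the count. Isg15 lies higher in the creatine library in every column (in cDC2s this turned to −0.21 with gates set on thinned cells), whereas Ifitm3 is lower in CD4 T cells, Tregs and NK cells, and Rsad2 is lower in classical monocytes.

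Rsad2 encodes viperin, which makes a chain-ending ribonucleotide, and Cmpk2 a mitochondrial nucleotide kinase that supplies its substrate. The genes are neighbors on chromosome 12 (chr12:26442746-26456452 and chr12:26469204-26479837), read in opposite directions. Rsad2 was higher in the creatine library in CD8 T cells, at 5.21 and 8.66 CPM (0.73, 0.45 to 1.02), in macrophages, at 140 and 194 CPM (0.47, 0.37 to 0.57), and in nonclassical monocytes, at 26.0 and 86.0 CPM (1.72, 0.94 to 2.62). With gates set on cells thinned to 5000 UMIs its ratio was 0.13 in macrophages and 2.69 in nonclassical monocytes. In classical monocytes Rsad2 was lower, at 326 and 122 CPM (−1.41, −1.66 to −1.17). Cmpk2 gave 0.95 (0.54 to 1.37) in CD8 T cells, 0.43 (0.22 to 0.65) in macrophages and 0.46 (−0.33 to 1.36) in nonclassical monocytes, and was at 75.7 and 32.9 CPM in classical monocytes (−1.20, −1.70 to −0.71). Both neighbors were thus lower in classical monocytes as first gated.

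Few cells held most of the Rsad2 UMIs of control classical monocytes. In the control library 7 cells, the top 5% by Rsad2 count, held 83.6% of the Rsad2 UMIs of 132 cells, whereas in the creatine library the top 9 of 166 cells held 40.7%. The share of cells with an Rsad2 UMI, with each cell thinned to 2000 UMIs, was 14.4% in the control (exact 95% interval 8.89 to 21.6) and 19.3% in the creatine library (13.6 to 26.1), and without thinning 34.8% and 39.2%. For Cmpk2 the thinned shares were 12.9% and 6.63%, and the top cells held 63.0% and 43.1% of the UMIs. With every positive gate threshold doubled, the Rsad2 ratio in classical monocytes turned to 0.92.

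The 2-5A synthetases make an oligonucleotide that activates RNase L. They were counted mostly in myeloid cells. Oasl2 was higher in each of 4 of the 8 types, those where it was counted, from 0.44 (0.34 to 0.54) in macrophages to 1.23 (0.78 to 1.70) in nonclassical monocytes, and Oas3 was higher in each of 5 types, with 9.55 and 15.4 CPM in CD8 T cells (0.69, 0.48 to 0.89) and 33.5 and 106 CPM in nonclassical monocytes (1.66, 0.97 to 2.44). Oas1a was the exception. It was at 49.7 and 30.8 CPM in macrophages (−0.69, −0.91 to −0.48), at 74.0 and 41.4 CPM in classical monocytes (−0.84, −1.30 to −0.38), and at 4.25 and 4.21 CPM in CD8 T cells (−0.01, −0.37 to 0.34). Of the last 500 bases of its transcripts, 56.1% of the 50-base windows also occur in the neighboring Oas1g, so the Oas1a count is uncertain.

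Of 32 counted pairs of a nucleic acid sensor and a cell type, 12 were at least 1.5-fold higher in the creatine library and 0 lower. Of all pairs of a counted gene and 1 of the 8 types, 4.37% were higher and 3.21% lower. Over all members 104 of 246 pairs were higher and 7 lower. Zbp1, a sensor of Z-form nucleic acid that can start necroptosis, was higher in all 8, with 70.4 and 123 CPM in CD8 T cells (0.81, 0.74 to 0.88), 184 and 297 CPM in macrophages (0.69, 0.60 to 0.77) and 145 and 300 CPM in nonclassical monocytes (1.05, 0.71 to 1.41). Ifih1 (MDA5) was higher in each of 6 types, with its largest lymphoid ratio in NK cells, 0.94 (0.33 to 1.60). Ddx58 (RIG-I) differed by less than the counting error in NK cells, at 56.6 and 57.8 CPM (0.03, −0.24 to 0.30), and had 0.80 (0.39 to 1.20) in Tregs. Eif2ak2 (PKR), which stops translation on binding double-stranded RNA, ranged from −0.17 in conventional CD4 T cells to 0.63 in nonclassical monocytes.

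The HIN-200 family, a cluster of genes for DNA-binding proteins on chromosome 1, differed between cell types in its members. Ifi203 was higher in all 8 types, by as little as 0.14 (0.02 to 0.26) in NK cells and as much as 1.81 (1.41 to 2.23) in nonclassical monocytes. Ifi209 was higher in each of 7, with 71.6 and 179 CPM in Tregs (1.32, 1.06 to 1.59). Ifi205 was counted, among the 8 types, only in the myeloid ones, with 27.4 and 57.3 CPM in macrophages (1.06, 0.86 to 1.26), 87.2 and 203 CPM in classical monocytes (1.22, 0.90 to 1.55) and 11.2 and 90.1 CPM in nonclassical monocytes (3.01, 1.87 to 4.48). Ifi204 was at 8.86 and 5.93 CPM in CD8 T cells (−0.58, −0.85 to −0.31), close to the 6.06 and 3.83 CPM that free RNA could give there. For Ifi205 and Ifi209, 79.2% and 63.4% of the windows at the transcript end also occur in other genes of the cluster, so their counts are uncertain.

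Among the transcription factors, Irf7, which amplifies the production of type I interferon, was higher in all 8 types, with 20.4 and 32.0 CPM in CD8 T cells (0.65, 0.51 to 0.80), 241 and 317 CPM in macrophages (0.40, 0.32 to 0.47) and 121 and 290 CPM in nonclassical monocytes (1.26, 0.89 to 1.65). In NK cells and classical monocytes its intervals reached 0, at 0.21 (−0.09 to 0.52) and 0.15 (−0.02 to 0.32). Stat2 was at 14.8 and 23.3 CPM in CD8 T cells (0.65, 0.49 to 0.82) and at 41.0 and 73.2 CPM in Tregs (0.84, 0.46 to 1.22), and at 48.2 and 47.0 CPM in conventional CD4 T cells (−0.04, −0.63 to 0.57). Irf9 varied least of the 3, between −0.02 in NK cells and 0.60 (0.10 to 1.11) in conventional CD4 T cells.

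Of the membrane restriction factors, Bst2 and Ifitm3 differed in direction. Bst2 (tetherin), which holds budding virions at the cell surface, was at 84.4 and 122 CPM in CD8 T cells (0.54, 0.47 to 0.61), 134 and 268 CPM in Tregs (1.00, 0.80 to 1.20) and 389 and 504 CPM in macrophages (0.37, 0.31 to 0.43). In classical monocytes it was at 325 and 302 CPM (−0.11, −0.30 to 0.08). Ifitm3, which blocks the entry of viruses from endosomes, was at 279 and 167 CPM in conventional CD4 T cells (−0.74, −1.01 to −0.47), at 296 and 172 CPM in Tregs (−0.79, −0.98 to −0.59) and at 48.4 and 24.3 CPM in NK cells (−0.99, −1.33 to −0.66). In macrophages it was at 1494 and 1616 CPM (0.11, 0.08 to 0.14) and in nonclassical monocytes at 3273 and 4270.3 CPM (0.38, 0.31 to 0.46). The NK cell level lay within what free RNA could give in both libraries, 58.4 and 38.5 CPM. In Tregs the top 5% of cells held 91.0% of control and 83.7% of creatine Ifitm3 UMIs, and in conventional CD4 T cells 87.2% and 78.0%. The lower Ifitm3 levels depended on the processing. With gates set on thinned cells the ratio was 0.42 in Tregs and 0.15 in NK cells, but −1.51 in conventional CD4 T cells. In conventional CD4 T cells it was 0.25 without likely doublets, −0.10 with cells weighted equally and −1.25 with gate thresholds doubled. In Tregs it was −1.58 without likely doublets and −0.58 with cells weighted equally.

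Among the other effectors, Phf11b, a PHD finger protein, was at least 1.5-fold higher in 6 of 7 types, with 98.7 and 232 CPM in classical monocytes (1.23, 0.94 to 1.54). It shared 42.6% of its end windows with other Phf11 genes. Ifi47, a GTPase of the immunity-related family that also answers IFN-γ, was higher in all 8, with 170 and 292 CPM in macrophages (0.78, 0.69 to 0.86). Parp14, an ADP-ribosyltransferase, was likewise higher in all 8, with its largest ratio in γδ T cells (1.23, 0.60 to 1.91). Mx1, a dynamin-like GTPase, ranged from 0.01 (−0.31 to 0.34) in classical monocytes, at 111 and 112 CPM, to 1.27 in nonclassical monocytes. Ifi44 could be counted only in macrophages, at 13.1 and 21.7 CPM (0.73, 0.42 to 1.04).

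Ifi27l2a, which encodes a small membrane protein, varied widely between lymphoid types. It was at 577 and 826 CPM in CD8 T cells (0.52, 0.49 to 0.55), 2008 and 3633 CPM in Tregs (0.86, 0.80 to 0.91) and only 47.0 and 43.0 CPM in NK cells (−0.13, −0.43 to 0.18), close to the free-RNA level of 64.7 and 41.9 CPM there. In macrophages it was lower in the creatine library, at 1274 and 1088 CPM (−0.23, −0.27 to −0.19), while classical monocytes had 2205 and 2472 CPM (0.17, 0.10 to 0.24).

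By cell type, the ends of the range were held by few members. Usp18 (1.26), Isg15 (1.14) and Ifit3b (1.08) had the highest log2 ratios in CD8 T cells, and Ifi204, Oas1a and Ifitm3 (0.03, −0.10 to 0.17) the lowest. In conventional CD4 T cells Ifit1, Ifit3 and Isg15 were highest, and Ifitm3, Ifi35 (−0.23, −0.69 to 0.24) and Eif2ak2 (−0.17, −0.73 to 0.40) lowest. Ifit1, Isg15 and Ifi209 led in Tregs, where Ifitm3, Irf9 (0.24, −0.10 to 0.57) and Ifi47 (0.30, 0.14 to 0.46) were lowest. The same names, Isg15 and Ifit1, thus led in both CD4 types, and Ifitm3 was lowest in both.

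γδ T cells were led by Isg15, Parp14 and Bst2, the last at 102 and 206 CPM (1.02, 0.45 to 1.63), and Ifi27l2a was lowest there, at 282 and 306 CPM (0.12, −0.26 to 0.50), before Ifi47 (0.49) and Ifi203 (0.54). NK cells were led by Isg15, Usp18 (0.99, 0.43 to 1.59) and Ifih1, with Ifitm3, Ifi208 (−0.24, −0.59 to 0.11) and Ifi27l2a lowest. Macrophages were led by Ifi205, Phf11b (0.87, 0.75 to 0.99) and Ifit2, with Oas1a, Ifi27l2a and Oas2 (0.03, −0.22 to 0.26) lowest. Oas2 and Oas1a lie in the same cluster on chromosome 5 as Oas3, which was higher in macrophages (0.53).

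Classical monocytes were led by Phf11b, Ifi205 and Trim30a (0.95, 0.74 to 1.17), and Rsad2, Cmpk2 and Oas1a were lowest. Nonclassical monocytes were led by Ifit1, Ifi205 and Isg15, and lowest were Irf9 (0.08, −0.40 to 0.58), Ifitm3 and Cmpk2. Stat2 (0.91) and Bst2 (1.04) were also higher there, and Irf7 had 0.46 in conventional CD4 T cells, 0.68 in Tregs and 0.72 in γδ T cells. Both monocyte types shared Ifi205 among their 3 highest members, while Rsad2 was lowest in one and had 1.72 in the other.

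Whether a member was broad or held to 1 branch was judged within each library from its median CPM over the 3 myeloid types (macrophages and both monocytes) and over 4 lymphoid types (CD8, conventional CD4, Treg and NK). A ratio of at least 4 in both libraries was read as higher on that side. By this measure 13 of 42 members were higher in myeloid cells, where 8.72% of 12500 genes were, and 0 were higher in T and NK cells, where 11.1% of genes were. The other 29 members were broad. The 13 were Ifit2, Oas1a, Oas2, Oas3, Oasl1, Oasl2, Dhx58, Ifi204, Irf7, Ifitm3, Rsad2, Cmpk2 and Slfn5, which include all 5 counted members of the 2-5A synthetase family. The widest gaps were those of Ifitm3, at 3273 CPM in myeloid and 164 CPM in T and NK types of the control (19.996-fold) and 43.7-fold in the creatine library, and of Ifi204, at 19.9-fold and 27.4-fold.

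**Figure D3:**
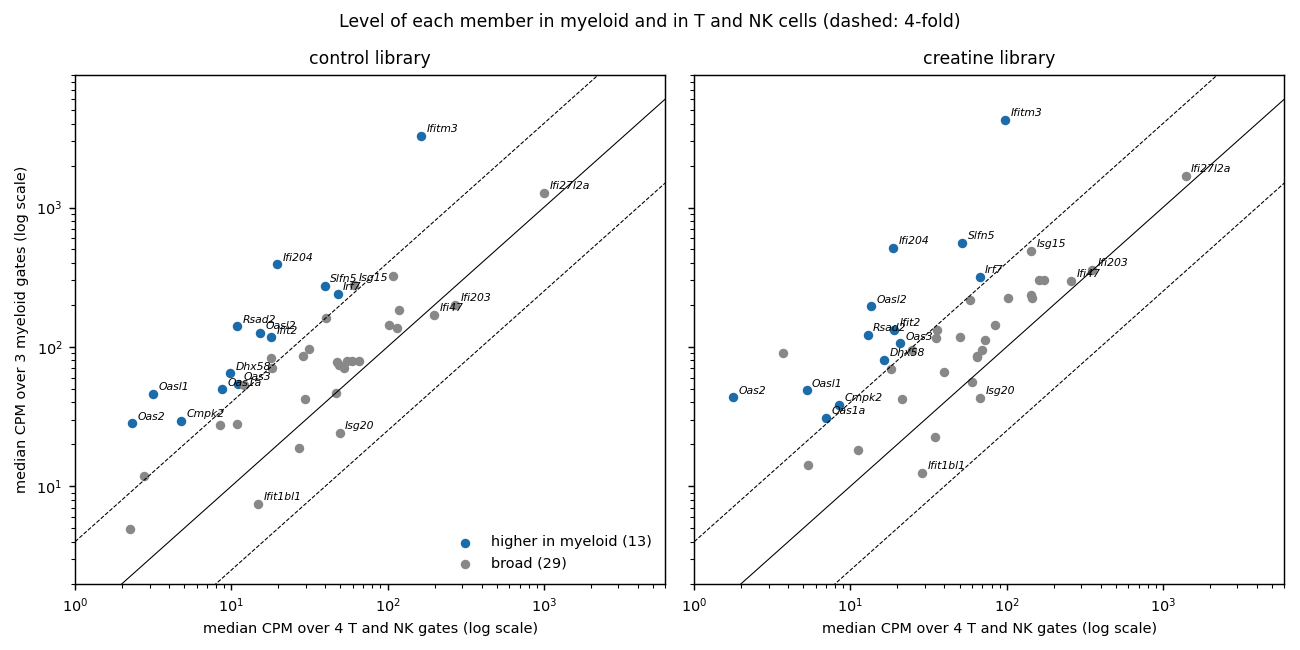
Median CPM of each member over 3 myeloid types (vertical axis, log scale) against its median over 4 T and NK types (horizontal axis, log scale) in the control (left) and creatine (right) libraries. Dashed lines mark a 4-fold ratio. The 13 blue points lie above the upper dashed line in both panels, and no point lies below the lower one.

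None of the 13 was restricted to myeloid cells in the strict sense. The level that free RNA in the droplets could give in T and NK cells was set from macrophage transcripts used in no gate (Apoe, Lyz2, Pf4 and Ms4a7), taking the largest share seen among them. Ifitm3 was within that level in 2 of 4 T and NK types in the control and 1 of 4 in the creatine library, and Oas2 in 0 and 1. The other 11 were above it in all 4 types of both libraries. Ifit3 (4.60-fold and 3.67-fold), Ifit3b (4.31-fold and 1.62-fold), Isg15 (4.57-fold and 3.43-fold) and Mx1 (4.45-fold and 3.77-fold) passed 4-fold in the control library alone. Ifi205 passed it in the creatine library alone, at 3.23-fold and 24.2-fold, and lay within the free-RNA level there in 2 of 4 T and NK types.

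A few broad members leaned to T and NK cells in both libraries. The ratio of myeloid to lymphoid medians was 0.50 (control) and 0.43 (creatine) for Ifit1bl1, 0.49 and 0.64 for the exonuclease gene Isg20, and 0.69 and 0.65 for Ifi208. Isg20 was highest in Tregs, at 156 and 205 CPM (0.40, 0.19 to 0.61). Ddx58 was the most even of these, with ratios of 1.00 and 0.93. No T cell-restricted member was found by this rule.

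Members were also summed per cell, with each cell thinned to 2000 UMIs so that depth was equal. In CD8 T cells the mean was 4.75 ± 4.90 member UMIs per cell (SD over 2443 cells) in the control and 6.62 ± 7.23 (2016 cells) in the creatine library, and the share of cells with at least 5 was 38.8% (exact 95% interval 36.9 to 40.8) and 51.5% (49.3 to 53.7). The median moved only from 4 to 5 UMIs while the 90th percentile moved from 9 to 14. Tregs had a mean of 10.8 ± 7.58 and 16.99 ± 13.2 over 298 and 189 cells, and conventional CD4 T cells 8.37 ± 6.58 and 12.8 ± 12.6 over 158 and 200 cells. In NK cells the means were 3.36 ± 3.73 and 3.84 ± 4.14, the lowest of the 8 types, with a median of 3 in both libraries.

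**Figure D4:**
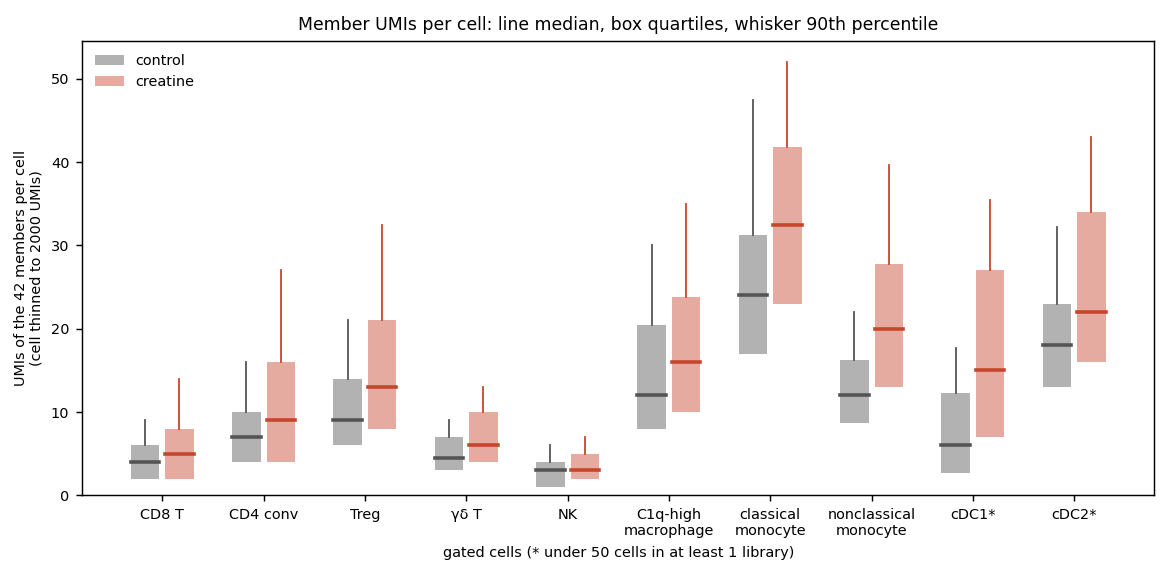
UMIs of the 42 members per cell (vertical axis) after each cell was thinned to 2000 UMIs, by gated cell type (horizontal axis) in the control (grey) and creatine (red) libraries. Lines are medians, boxes quartiles and whiskers the 90th percentile over cells. NK cells have the lowest and classical monocytes the highest values in both libraries, and the median of nonclassical monocytes goes from 12 to 20.

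Myeloid cells held more member UMIs at the same depth, with Ifitm3 and Ifi27l2a as large parts of the sums. Classical monocytes had 27.6 ± 20.9 and 33.6 ± 15.6 per cell, macrophages 15.3 ± 11.1 and 19.5 ± 15.002, and nonclassical monocytes 13.2 ± 6.78 and 22.1 ± 12.8. The median of nonclassical monocytes moved from 12 to 20 UMIs. Without Ifitm3 and Ifi27l2a the summed control level of the other 40 members was 2397 CPM in nonclassical monocytes, 2532 CPM in conventional CD4 T cells and 2265 CPM in Tregs. It was 1293 CPM in CD8 T cells and 1494 CPM in NK cells. In the control library nonclassical monocytes thus lay below conventional CD4 T cells without those genes, but above Tregs, CD8 T cells and NK cells. In the creatine library the sums for nonclassical monocytes, conventional CD4 T cells and Tregs were 5602, 3612 and 3667 CPM. There nonclassical monocytes were higher than both without Ifitm3 and Ifi27l2a. The summed log2 ratio in nonclassical monocytes was 0.78 with Ifitm3 and Ifi27l2a and 1.22 (1.14 to 1.31) without. Cells with no member UMI were rare there, 0 of 88 control and 0 of 274 creatine cells (upper limit of the exact 95% interval 4.11% and 1.34%), and made up 6.51% and 4.27% of CD8 T cells.

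Members differed in how they were spread over cells. Ifi27l2a had a UMI in 90.3% of thinned control and 91.5% of thinned creatine Tregs, whereas Ifit1 had one in 6.04% (3.62 to 9.38) and 17.5% (12.3 to 23.6). In CD8 T cells the top 5% of cells held 71.3% and 65.4% of the Ifit1 UMIs but 28.1% and 28.2% of those of Ifi27l2a. Isg15 had a UMI in 31.1% (27.9 to 34.4) of thinned control and 47.7% (41.9 to 53.5) of thinned creatine macrophages, and in 7.95% (3.26 to 15.7) and 26.3% (21.2 to 31.9) of nonclassical monocytes.

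Dendritic cells, whose response to creatine the study asked about, are given as thin samples. They did not all go one way. In Ccr7+ DCs (32 control and 8 creatine cells) the summed member level was 6512 and 5571 CPM (−0.23, −0.37 to −0.09). In plasmacytoid DCs (pDCs, 42 and 20 cells) it was 5670 and 6455 CPM (0.19, 0.08 to 0.30). Only 3 members were counted in each, 2 of them higher by any amount in Ccr7+ DCs (50.2% of all genes) and 1 in pDCs (45.9%). In cDC1s 16 of 23 counted members were at least 1.5-fold higher in the creatine library, against 9.93% of all genes, and 0 were lower, against 6.19%, with a median log2 ratio of 1.20. Any increase was seen for 22 of 23 (54.3% of all genes). Isg15 was at 97.4 and 449 CPM (2.21, 1.90 to 2.52), Irf7 at 117 and 246 CPM (1.07, 0.75 to 1.40), Ifitm3 at 877 and 2408 CPM (1.46, 1.35 to 1.57) and Ifi27l2a at 407 and 908 CPM (1.16, 0.99 to 1.33). Ifit2, at 11.9 and 119 CPM (3.33, 2.51 to 4.26), came after Ifit1 (5.03, 3.95 to 6.37), but they had only 14 and 7 control UMIs and reached 100 UMIs through the creatine library, where they were high. Lowest were Irf9, at 69.5 and 68.1 CPM (−0.03, −0.56 to 0.49), Mx1 (0.10, −0.44 to 0.63) and Ifi35 (0.17, −0.20 to 0.54). The 4 free-RNA reference transcripts above summed to 419 CPM in control and 2218 CPM in creatine cDC1s, with Lyz2 at 295 and 1871 CPM. Of the gate markers, Xcr1 was at 494 and 220 CPM and Clec9a at 215 and 259 CPM. Markers kept outside the gate were lower in the creatine library. Wdfy4 was at 549 and 363 CPM, Cadm1 at 97.4 and 49.8, Itgae at 147 and 62.9 and Naaa at 1803 and 1432. The part of these differences in the member ratios was not tested.

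In cDC2s 11 of 24 members were at least 1.5-fold higher, against 12.8% of all genes, and 0 were lower, against 7.12%, with a median of 0.52. Any increase was seen for 22 of 24 (53.9%). Ifit3 was at 75.9 and 217 CPM (1.52, 0.96 to 2.10) and Rsad2 at 65.9 and 213 CPM (1.69, 1.11 to 2.31), whereas Stat2 was at 109.9 and 109.8 CPM and Bst2 at 366 and 435 CPM (0.25, −0.05 to 0.55). Ifi204 was also high (1.16, 0.79 to 1.54) and Isg15 had 0.37, which turned to −0.21 with gates set on thinned cells. With those gates, over 22 control and 30 creatine cells, 4 of 15 counted members were higher. Their median was 0.32, beside 0.03 over all genes, and the share of all genes past the fold is not given there. Ifi205 was lowest, at 170 and 128 CPM (−0.41, −0.92 to 0.09). The gate markers Cd209a and Flt3 were at 827 and 1066 CPM and at 138 and 175 CPM. Markers kept outside the gate were lower in the creatine library. Ffar2 was at 154 and 51.5 CPM, Mgl2 at 124 and 42.6, Clec10a at 436 and 242 and Ccl17 at 38.0 and 0. The part of these differences in the member ratios was not tested. The 4 free-RNA reference transcripts summed to 2379 and 12971 CPM here, with Lyz2 at 2208 and 11919.9 CPM and Pf4 at 5.99 and 2.24 CPM. Lyz2 was higher in classical monocytes, at 16262 and 21698.5 CPM, than in macrophages, at 5433 and 6174 CPM. The part of these transcripts in the ratios was not tested. In Tregs Lyz2 was at 79.1 and 253 CPM and Apoe at 73.7 and 38.1 CPM, and in nonclassical monocytes Lyz2 was at 11293 and 16809 CPM. In sums over a gate, more interferon-stimulated RNA per cell and another make-up of cells within the gate cannot be told apart.

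The genes around the members were read from a list of 40 ligands, receptors, signaling proteins, inhibitors and sensors. Type I interferon transcripts themselves were near 0. Ifnb1, the IFN-β gene, had 59 UMIs in all control cells and 36 in all creatine cells, and Ifna1, Ifna4 and Ifna5 had 0 UMIs in both libraries, which allows at most 3 UMIs in each. A difference in these ligands was not detectable at this depth. Ifng, the IFN-γ gene, was at 318 and 574 CPM in CD8 T cells (0.85, 0.82 to 0.89), which held 10548 of its 12210 control and 18011 of its 20000 creatine UMIs. In NK cells Ifng was at 57.0 and 66.7 CPM (0.23, −0.03 to 0.49).

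**Figure D5:**
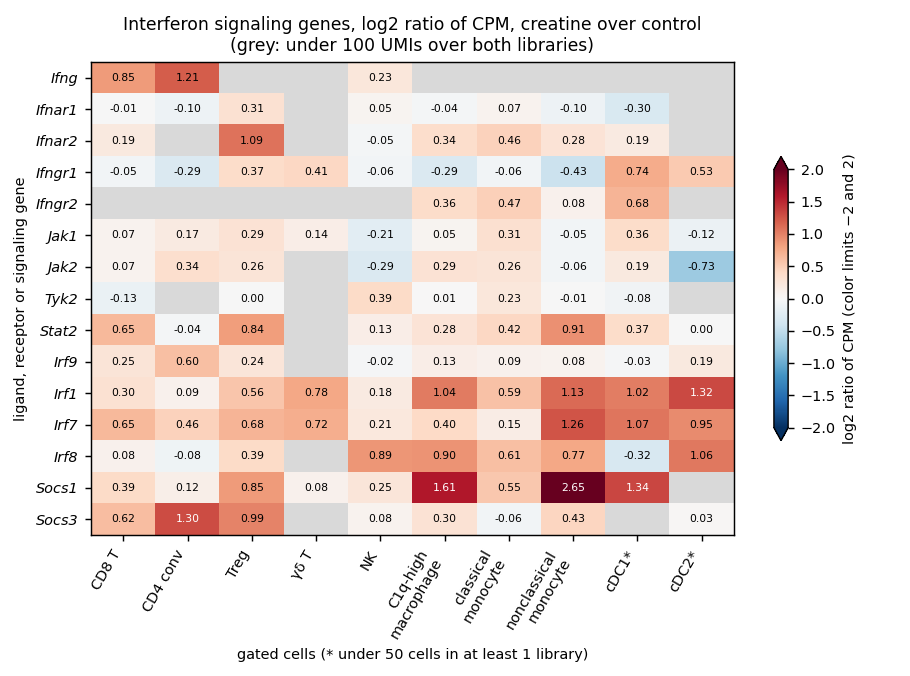
Log2 ratio of CPM, creatine over control library, printed in each cell, for 15 ligand, receptor and signaling genes (vertical axis) in 10 gated cell types (horizontal axis). Grey marks genes under 100 UMIs. Irf1 and Socs1 are red in macrophages and nonclassical monocytes, while Ifnar1, Jak1 and Tyk2 lie between −0.30 and 0.39 in the columns where they were counted.

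Of the receptors and kinases, Ifnar2 in Tregs alone passed 1.5-fold among the 8 types. Ifnar1 was at 66.6 and 67.8 CPM over all cells (0.03, −0.03 to 0.08) and between −0.10 and 0.31 in the 7 of 8 types where it was counted. Ifnar2 was at 44.8 and 54.7 CPM (0.29, 0.22 to 0.35), with 24.1 and 51.2 CPM in Tregs (1.09, 0.61 to 1.57). Ifngr1 was lower in nonclassical monocytes, at 1069 and 793 CPM (−0.43, −0.57 to −0.29). Over all cells Jak1 had 0.25 (0.22 to 0.28), Jak2 0.07 (0.01 to 0.13) and Tyk2 0.06 (−0.02 to 0.13). The part of the differing make-up of the libraries in these values over all cells was not tested.

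Irf1 and the inhibitor Socs1, which blocks the receptor kinases, had larger ratios. Irf1, which binds many of the same promoters and is strongly induced by IFN-γ, was at 139 and 286 CPM in macrophages (1.04, 0.95 to 1.13) and 151 and 330 CPM in nonclassical monocytes (1.13, 0.80 to 1.48), but at 154 and 164 CPM in conventional CD4 T cells (0.09, −0.23 to 0.41). Socs1 was at 49.8 and 152 CPM in macrophages (1.61, 1.47 to 1.74) and at 13.0 and 81.8 CPM in nonclassical monocytes (2.65, 1.58 to 3.99), the latter from 7 control UMIs. Irf8 was at 412 and 763 CPM in NK cells (0.89, 0.80 to 0.98) and 287 and 536 CPM in macrophages (0.90, 0.84 to 0.96).

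As a group, 3 of 25 counted pathway genes were at least 1.5-fold higher and 1 lower in CD8 T cells (2.93% and 3.25% of all genes). In macrophages 5 of 27 were higher and 0 lower (2.21% and 2.95%), and in nonclassical monocytes 5 of 24 and 0 (8.39% and 4.3%). In conventional CD4 T cells 2 of 16 were higher (4.44% of all genes), Ifng (1.21) and Socs3 (1.304). Tregs had 3 of 21 higher (4.95%), Ifnar2, Socs1 (0.85) and Socs3 (0.99). In γδ T cells 2 of 8 were higher (12.4%), Irf1 (0.78) and Irf2 (0.60), and in NK cells 1 of 24 (2.42%), Irf8. Classical monocytes had 6 of 23 higher (9.34%), which included Irf1 (0.59), Irf8 (0.61), Pias1 (0.94) and the DNA sensor gene Mb21d1 (0.85). In these other types 0 were lower (2.06% to 5.31%). The lower gene in CD8 T cells was Irf5, at 10.9 and 6.08 CPM (−0.84, −1.10 to −0.58). The median log2 ratio of the pathway list was 0.17 in CD8 T cells, 0.29 in macrophages and 0.16 in nonclassical monocytes. For the members it was 0.53, 0.42 and 1.08. Of the 9 sensors and adaptors, Tmem173 (STING) was at 79.8 and 183 CPM in classical monocytes (1.19, 0.86 to 1.54) and Tlr3 at 179 and 106 CPM in cDC1s (−0.75, −1.14 to −0.38). In cDC1s the largest ratios of the list were those of Socs1 (1.34), the phosphatase gene Ptpn6 (1.07) and Irf1 (1.02). In cDC2s Irf1 (1.32), Irf8 (1.06) and Irf5 (0.65) were higher and Jak2 (−0.73) lower.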

How the data were processed

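For each library the authors deposited a matrix of raw UMI counts per gene and cell, made with Cell Ranger 3.0.2 on mm10 (GRCm38), with no normalization. The study's filter (at least 300 UMIs, at least 100 genes, at most 25% mitochondrial UMIs) was applied and here removed 408 control and 274 creatine barcodes, all by the mitochondrial limit, more than the study states. Cells were gated on absolute UMIs of 43 markers in 15 gates, and a cell that passed no gate or several was left out. UMIs were summed by gate and library and scaled to CPM. Intervals are exact 95% ones: Poisson for a CPM, conditional binomial (Clopper-Pearson) for a log2 ratio. With 1 library per group no test was made. Scrublet (scanpy 1.11.5) marked 2 and 8 cells, so the caller was taken not to have worked and no cell was removed, and leaving out the 6% of cells with the highest scores was an alternative. The other alternatives changed scaling (TMM, edgeR 4.0.16), filters, gates and thresholds. Python 3.11.15 with numpy 2.4.6 and scipy 1.17.1 was used, and scripts were tested on simulated data. Promoters are RefSeq windows, transcripts GENCODE M21, and shared sequence was read in 50-base windows of the last 500 bases. The members and lists were chosen with earlier results of these data known. Named genes were, in each cell type described, the 3 highest and 3 lowest members and Isg15, Ifit1, Ifit3, Irf7, Stat2, Rsad2, Bst2, Ifitm3 and Ifi27l2a, with further members given by role, and of the pathway list the ligands, receptors, Irf1 and genes past 1.5-fold. Values of single genes that are withheld are not reported here.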

Additional observations from a re-analysis of the deposited data

Results flagged for a closer look

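As first gated, Rsad2 had a log2 ratio of −1.41 in classical monocytes. Its ratios in the other 3 types where it was counted were 0.47 to 1.72. The log2 ratio of Cmpk2 was −1.20 in classical monocytes, against 0.43 to 0.95 in the other 3. These results stand out because 1 library moved one way in classical monocytes and the opposite way in the other cell types. The difference between cell types was not tested, since there was 1 library per group, and the few control cells that held most of the Rsad2 UMIs are described above.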

How the results depend on the processing

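Over the 10 alternatives (9 in γδ T cells and cDC2s) the median log2 ratio of the members stayed above 0 in all 8 cell types, between 0.49 and 0.55 in CD8 T cells, 0.31 and 0.63 in conventional CD4 T cells, 0.64 and 0.82 in Tregs, 0.60 and 0.89 in γδ T cells, 0.21 and 0.37 in NK cells, 0.32 and 0.46 in macrophages, 0.18 and 0.58 in classical monocytes, and 1.04 and 1.47 in nonclassical monocytes. It lay between 0.94 and 1.297 in cDC1s and between 0.32 and 0.60 in cDC2s. Of the counts and medians above, 314 values stayed within the spread or within 1.5 times and 38 moved. The cause was not tested except where fewer or more genes were counted.

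With a minimum of 30 UMIs more members were counted. Higher were 14 of 38 in conventional CD4 T cells, 14 of 24 in γδ T cells, 27 of 34 in cDC1s and 21 of 40 in cDC2s. Lower were 1 of 41 in CD8 T cells, 2 of 38 in conventional CD4 T cells and 2 of 39 in Tregs. With a minimum of 500 UMIs fewer were counted. Of 3 in conventional CD4 T cells 0 were higher and 0 lower, and of 11 in NK cells 2 were higher and 0 lower. Higher were 7 of 12 in Tregs, 13 of 14 in nonclassical monocytes, 2 of 3 in cDC1s and 0 of 4 in cDC2s. In classical monocytes 1 of 17 was lower. The share of all genes past the fold is not given for the alternatives. TMM scaling, totals without mitochondrial and ribosomal protein genes, no mitochondrial limit, and leaving out likely doublets each gave 1 lower of 38 members in CD8 T cells. The second of these gave 4 of 42 higher members over all cells, where the main count was 7 of 42. With cells weighted equally 0 of 25 were lower in conventional CD4 T cells and 0 of 26 in Tregs. Without likely doublets 0 of 24 were lower in conventional CD4 T cells, where Ifitm3 turned to 0.25.

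With gate thresholds doubled 3 of 15 members were higher in conventional CD4 T cells. In classical monocytes the median was then 0.58, 17 of 34 were higher, 0 were lower and Rsad2 turned to 0.92. With gates applied to cells thinned to 5000 UMIs, 15 of 26 were higher in conventional CD4 T cells and 4 of 15 in cDC2s. Lower were 2 of 40 in CD8 T cells, 0 of 28 in Tregs, 0 of 33 in NK cells and 2 of 42 in macrophages. With these gates Ifitm3 turned to 0.42 in Tregs, 0.15 in NK cells and −0.0039 in macrophages, and Isg15 to −0.21 in cDC2s. Ifitm3 moved the other way in conventional CD4 T cells, to −1.51. With a breadth of 2-fold 21 members were higher in myeloid cells and with 8-fold 6. Adding cDC1s and cDC2s to the myeloid side, an alternative chosen after seeing the data, gave 12 in place of 13. Thinning to 1000 UMIs put the share of cells with no member UMI, creatine minus control, at −4.97 percentage points in CD8 T cells and −2.23 in macrophages. Leaving out replicates could not be done, and depth limits γδ T cells and cDCs most. No paired analysis was possible because each group had 1 library.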
